A study of Mus musculus with 4 samples.

Results

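The vesicular glutamate transporters are encoded by Slc17a7 (VGLUT1), Slc17a6 (VGLUT2) and Slc17a8 (VGLUT3), 3 of the 32285 genes counted in every section, and they were taken by symbol from the gene list of the count files. Their mRNA was mapped with 10x Visium, in which a tissue section lies on an array of barcoded capture spots and each spot reads the polyA RNA of a small group of neighboring cells. Each of 4 adult male mice gave 1 coronal section of 1 hemisphere at the level of the dorsal hippocampus. Trained 1 and trained 2 had learned active place avoidance, in which a mouse on a rotating arena learns to keep out of a sector where it is shocked, and untrained 1 and untrained 2 had been in the same arena with the shock off. All 4 mice were ArcCreERT2::eYFPflx and had received 4-hydroxytamoxifen before a retention test, and the brains were taken 3 days after it. Both groups thus shared the drug and the transgenes, a Cre recombinase that is expressed where Arc is and works only with tamoxifen, and an eYFP reporter.

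The transporters load glutamate into synaptic vesicles, using the proton gradient that the vesicular ATPase builds up, and a neuron that carries one of them can release glutamate. VGLUT1 is known as the transporter of cortical and hippocampal pyramidal neurons and of dentate granule cells, and VGLUT2 as that of thalamic, hypothalamic and brainstem neurons. VGLUT3 is found in sparse cells that often release another transmitter as well, such as some interneurons. The proteins sit in axon terminals, often far from the cell body, whereas the arrays read mRNA.

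Slc17a7 (ENSMUSG00000070570) lies on the plus strand at chr7:45163949-45176142 of mm10 and has 5 annotated transcripts. Slc17a6 (ENSMUSG00000030500) lies on the plus strand of the same chromosome at chr7:51622006-51671119, with 4 transcripts. Slc17a8 (ENSMUSG00000019935) lies on the minus strand at chr10:89574020-89621253, with 2 transcripts. The 250 bases before the RefSeq start of the pair that divided the sections between them are shown because these are the proximal promoters of the abundant members, whose maps differ (RefSeq, GRCm38.p6, plus strand, 5′ to 3′). Capitals mark E-boxes, the CANNTG motif bound by basic helix-loop-helix factors such as the neurogenic NeuroD family, and GC boxes, GGGCGG or its complement CCGCCC. The Slc17a7 window is chr7:45163671-45163920 and the Slc17a6 window, the first of 2 in the table, is chr7:51621580-51621829.
Slc17a7: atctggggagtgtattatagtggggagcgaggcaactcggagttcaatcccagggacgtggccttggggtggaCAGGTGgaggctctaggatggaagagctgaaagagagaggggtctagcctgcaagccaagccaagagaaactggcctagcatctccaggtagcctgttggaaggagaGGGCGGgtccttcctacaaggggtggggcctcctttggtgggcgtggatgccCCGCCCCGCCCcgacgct
Slc17a6: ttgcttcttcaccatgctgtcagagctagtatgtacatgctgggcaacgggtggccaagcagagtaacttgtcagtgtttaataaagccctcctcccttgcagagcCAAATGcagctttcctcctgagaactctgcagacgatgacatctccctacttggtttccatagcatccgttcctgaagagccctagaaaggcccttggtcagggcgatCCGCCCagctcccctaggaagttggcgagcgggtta
The Slc17a7 window held 1 E-box, 3 GC boxes and 9 CpG dinucleotides at a GC content of 61.2%. The Slc17a6 window held 1 E-box, 1 GC box and 7 CpG at 53.2%. Of 32851 windows of the same length before mouse genes, 66.2% held an E-box and 32.7% a GC box on either strand, and the medians were 52.4% GC and 6 CpG. Both motifs are thus common letters in such windows, and no binding was measured here.

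The sections held 2359 to 3055 spots and 3560294 to 10330015 UMIs (unique molecular identifiers, each standing for 1 captured mRNA molecule). Untrained 1 was the shallowest, with a median of 1048 UMIs per spot, and trained 2 the deepest, with 2493. Of the array barcodes, 1330 were shared by all 4 sections, because a Visium barcode marks a position on the array. Levels are given as CPM, the UMIs of a gene per 1000000 UMIs of a section or region. Since 1 molecule gives 1 UMI at its 3′ end whatever its length, CPM of different genes were compared without scaling by length. Spots were assigned to 14 brain regions by marker genes that included none of the transporters, and 31.4% of spots on average stayed unassigned. Because these markers placed the spots, their higher level in their own region follows from the rule and is given as a description. Against the other spots of their section, the markers of a region were summed at 2.55-fold (CA3 pyramidal layer) to 65.0-fold (choroid plexus) higher levels in it, with 8.14- to 15.0-fold for the thalamus and 19.1- to 35.1-fold for the medial habenula.

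Slc17a7 was the most abundant of the 3 in every section and Slc17a8 was rare. Slc17a7 had 498 CPM in trained 1, 393 in trained 2, 631 in untrained 1 and 609 in untrained 2, and 47.2% of all 10940 spots held at least 1 of its 13859 UMIs. Slc17a6 had 115, 148, 122 and 103 CPM in the same order, with 3456 UMIs in 20.8% of spots. Slc17a8 had 3.65, 3.39, 2.81 and 2.73 CPM, from 26, 35, 10 and 18 UMIs. The 4 exact 95% Poisson intervals of Slc17a8, which cover counting error only, overlapped, running from 2.39 to 5.35 CPM in trained 1 and from 1.35 to 5.17 in untrained 1. Slc17a6 made up 18.8%, 27.3%, 16.2% and 14.4% of the UMIs of the Slc17a7 and Slc17a6 pair in trained 1, trained 2, untrained 1 and untrained 2, so trained 2 stood highest. 

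Slc17a7 was a transcript of the hippocampus and cortex. Its highest mean was in the CA3 pyramidal layer, at 1036 ± 119 CPM (SD, n = 4 sections), followed by cortical layer 6 at 915 ± 80.3, layer 5 at 768 ± 69.1 and the upper layers at 749 ± 161. CA1 had 699 ± 139 CPM and the dentate granule layer 586 ± 233. No neighbors in the order of these 6 layers had means apart by more than the sum of their SDs. CA3 stood above layer 6 in 3 of 4 sections, with 1151, 875, 1026 and 1092 CPM in trained 1, trained 2, untrained 1 and untrained 2. This step depended on how the layers were outlined. With each spot scored by its own counts alone the means were 1268 CPM in CA3 and 942 in layer 6, and with a stricter lead of the first marker list 1223 and 976, and in both cases CA3 was higher in 4 of 4 sections and the means were apart by more than the sum of their SDs. Spots with no region had 574 ± 147 CPM and meningeal spots, which lie against the cortex, 526 ± 208. Below these came the thalamus at 352 ± 72.9 and the medial habenula at 347 ± 158 CPM. The striatum, whose projection neurons are GABAergic, had 212 ± 118 CPM, white matter 136 ± 49.7 and the hypothalamus 125 ± 59.5.

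Slc17a6 was a transcript of the diencephalon. It was highest in the thalamus, at 360 ± 33.1 CPM (SD, n = 4), with 356, 399, 319 and 365 CPM in trained 1, trained 2, untrained 1 and untrained 2. The medial habenula, a small dorsal nucleus next to the midline, had 300 ± 68.4 CPM and the hypothalamus 153 ± 24.2. The step from the medial habenula to the hypothalamus was the only gap between neighbors in the order that exceeded the sum of their SDs, and it was present in 4 of 4 sections (two-sided exact sign-flip permutation p = 0.125, the smallest that 4 sections can give). Every other neuronal layer was lower: 91.6 ± 38.5 CPM in CA3, 71.4 ± 53.3 in the dentate granule layer, 40.3 ± 17.2 in CA1 and 47.3 to 68.5 in the 3 cortical layers. The means in CA3 and in the dentate granule layer were 38.9 and 42.2 CPM when each spot was scored by its own counts. Choroid plexus, an epithelium without neurons, was lowest at 25.1 ± 17.0 CPM, from 9 UMIs.

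**Figure D1:**
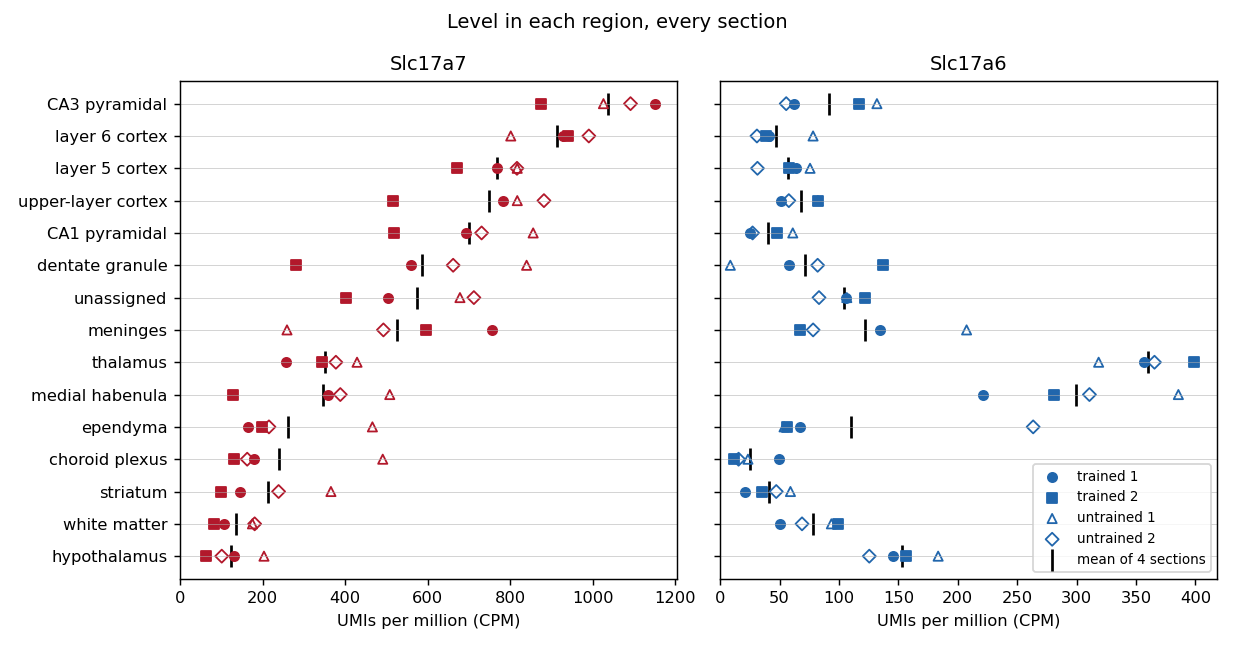
Level of Slc17a7 (left) and Slc17a6 (right) in each region, in CPM, with 1 point per section and a vertical bar at the mean of the 4 sections. Slc17a7 runs from a mean of 1036 in CA3 to 125 in the hypothalamus, whereas Slc17a6 is highest in the thalamus at 360 and the medial habenula at 300.

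The differences were sized between thalamus and cortex. Over its 3 layers together the cortex held 813 ± 60.3 CPM of Slc17a7, 2.35-fold more than the thalamus, and the within-section difference was -1.23 ± 0.32 on the log2 scale (SD, n = 4, range -1.67 to -0.92). Slc17a6 was 6.38-fold higher in the thalamus than in the cortex, where it had 57.7 ± 15.7 CPM, and the difference was 2.67 ± 0.47 (range 2.00 to 3.11). Each difference thus had the same sign in 4 of 4 sections.

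The thalamus nevertheless held Slc17a7 and Slc17a6 at levels of similar size. Its Slc17a7 level was 256, 345, 429 and 378 CPM in trained 1, trained 2, untrained 1 and untrained 2, which brackets the 319 to 399 CPM of Slc17a6. Slc17a6 made up 50.9 ± 6.66% of the pair's UMIs there (SD, n = 4), against 5.03 to 8.81% in the cortical layers, 5.55% in CA1 and 8.28% in CA3. In the dentate granule layer the share was 9.43%, 32.7%, 1.01% and 11.0% in trained 1, trained 2, untrained 1 and untrained 2, so its mean of 13.5% rested on trained 2. The other diencephalic regions were also mixed, at 56.7% in the hypothalamus and 48.5% in the medial habenula.

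Whether the thalamic Slc17a7 came with other transcripts of cortical projection neurons was examined in inner thalamic spots, all of whose neighbors on the array were thalamic as well. These were 120, 254, 60 and 177 spots in trained 1, trained 2, untrained 1 and untrained 2. There Slc17a7 was at 383 ± 91.9 and Slc17a6 at 385 ± 21.5 CPM, no lower for Slc17a7 than over the whole thalamus. Slc17a7 stood at 34.1%, 48.2%, 61.2% and 45.3% of the cortex of the same section. Nrgn, a calmodulin-binding protein of forebrain neurons, was at 12.3 ± 7.65% of its cortical level (SD, n = 4). The transcription factors of cortical and hippocampal projection neurons were similarly low, with means of 12.7% for Tbr1, 11.2% for Neurod2 and 15.1% for Neurod6, and no section exceeded 23.8% for any of these 4 genes. Slc17a7 was above all 4 in 4 of 4 sections. Tbr1, Neurod2 and Neurod6 had 14 to 27 UMIs in all inner thalamic spots, so their shares are coarse.

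Slc17a7 did not stand apart from the 5 genes whose levels over the regions were most like its own. These 5 were picked by likeness over sums that include the thalamus and the cortex, so similar shares follow in part from the rule. In the inner thalamus Olfm1 was at 48.7 ± 6.77% of its cortical level, Enc1 at 52.6 ± 3.01%, Schip1 at 55.5 ± 18.7% and Camk2a at 58.9 ± 18.8% (SD, n = 4), beside 47.2 ± 11.1% for Slc17a7. Cck, at 115 ± 14.1%, was as abundant there as in the cortex. Slc17a7 was the higher in 2 of 4 sections against Olfm1, in 1 against each of Enc1, Camk2a and Schip1, and in 0 against Cck.

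In the hypothalamus Slc17a7 was at 15.3 ± 7.21% of the cortex, within the 10.9 to 27.5% of the means of the 4 forebrain genes, and it was above all 4 in 0 of 4 sections. The 5 genes most like it had means of 31.0 to 49.6% there and were above it in 4 of 4 sections. Both sets of genes were chosen after the Slc17a7 levels had been seen, and the comparison is a description. Signal carried from the cortex into other spots was not measured separately. The cell bodies that hold the thalamic Slc17a7 cannot be resolved, because a spot reads several cells.

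**Figure D2:**
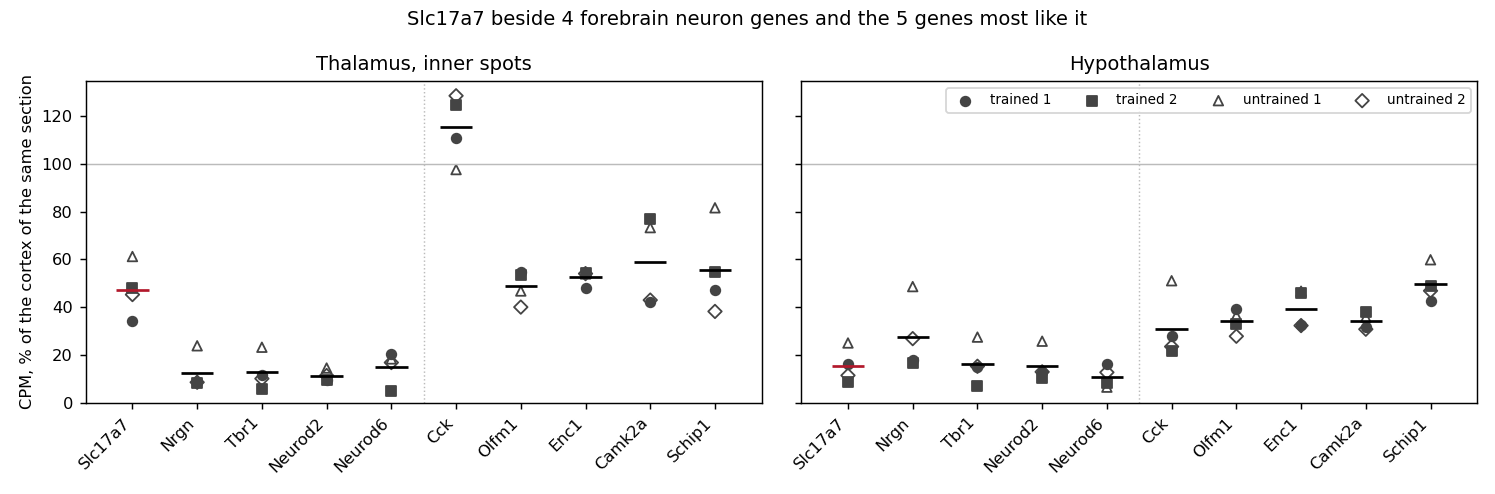
Level in inner thalamic spots (left) and in the hypothalamus (right) as a percent of the cortex of the same section, with 1 point per section and a bar at the mean, for Slc17a7, 4 forebrain neuron genes and, right of the dotted line, the 5 genes most like Slc17a7. Slc17a7 lies between 34.1 and 61.2% in the inner thalamus, above the 4 forebrain genes in each section and with a mean below those of the other 5, and at a mean of 15.3% in the hypothalamus, among the 4 and below the 5.

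The change from one transporter to the other at the dorsal border of the thalamus took place within a few spots. Slc17a6 made up 50.6 ± 6.88% of the pair in inner thalamic spots, 51.1 ± 6.58% at the thalamic edge and 57.0 ± 8.19% at the first array step dorsal of it (SD, n = 4). The share then was 40.4 ± 12.6% at step 2, 21.98 ± 11.7% at step 3, 12.2 ± 3.85% at step 4 and 6.69 ± 5.80% at step 5. Slc17a7 was at 304 ± 116 CPM at step 1 and at 824 ± 180 at step 4, whereas Slc17a6 was at 394 ± 83.6 and at 111 ± 27.5. Between steps 1 and 4 the means thus moved in opposite directions, but not in the same steps. At step 2 Slc17a6 was already at 241 ± 45.1 CPM with Slc17a7 at 375 ± 132, and Slc17a7 was at 699 ± 165 at step 3. At step 5 both means were below those of step 4, at 674 CPM for Slc17a7 and 50.2 for Slc17a6. In untrained 1 both levels were lower at step 2 than at step 1. Ventral of the thalamus there was no such turn, and the mean share stayed between 45.2 and 65.0% over 8 steps.

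**Figure D3:**
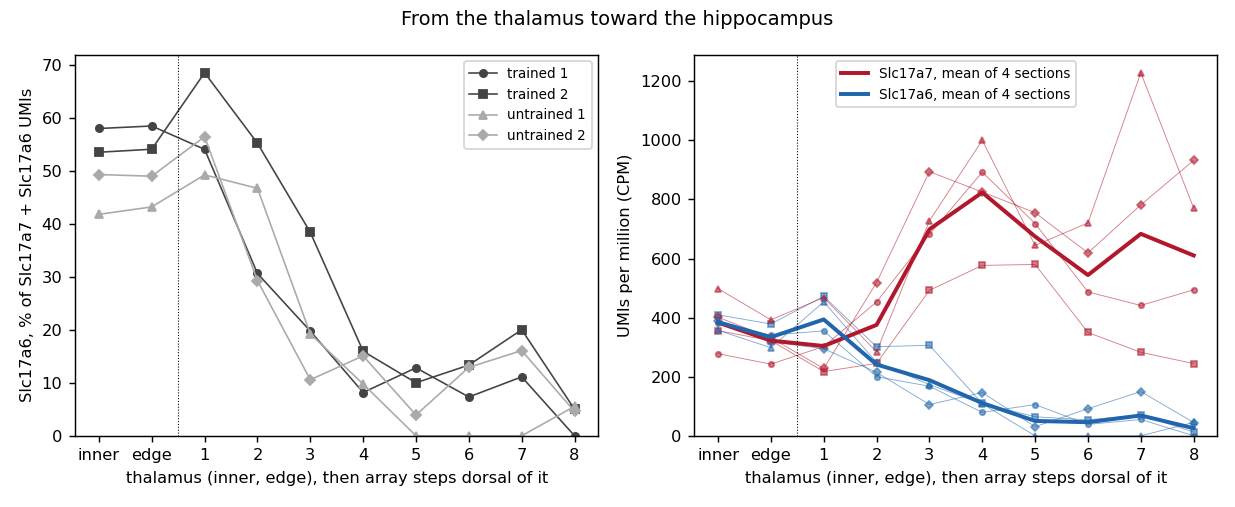
Percent of the Slc17a7 and Slc17a6 UMIs that are Slc17a6 (left, 1 line per section) and the level of each gene in CPM (right, thick lines for the mean of 4 sections and thin lines for sections) in inner and edge thalamic spots and at 1 to 8 array steps dorsal of the thalamus. The mean share goes from 57.0% at step 1 to 6.69% at step 5 while mean Slc17a7 is 304 at step 1 and 824 at step 4.

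Single spots were classed by which of the pair had more UMIs, among spots with at least 2 UMIs of the pair. This classed 940, 1131, 594 and 1004 spots in trained 1, trained 2, untrained 1 and untrained 2, or 32.8%, 37.0%, 25.2% and 37.7% of all spots. Slc17a7 led in 722, 739, 471 and 831 of them and Slc17a6 in 114, 256, 40 and 86, while 104, 136, 83 and 87 were tied. Over the 4 sections 2763 spots were Slc17a7-dominant and 496 Slc17a6-dominant. Shallow counts limit this call: 1 UMI decides it in many spots.

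Slc17a6-dominant spots lay medial of the Slc17a7-dominant ones. Their median array position was row 41 and column 94 in trained 1, against row 31 and column 48 for Slc17a7-dominant spots, where rows count from the dorsal side and columns toward the midline. The medians were row 48.5 and column 81 against 30 and 50 in trained 2, row 28 and column 105 against 27 and 66 in untrained 1, and row 39 and column 105 against 31 and 61 in untrained 2. Slc17a6-dominant spots were more medial in all 4 sections, and the row difference was only 1 in untrained 1. The median row of all spots was 40, 45, 29 and 38 in trained 1, trained 2, untrained 1 and untrained 2, so that the Slc17a7-dominant spots lay dorsal of it and the Slc17a6-dominant ones close to it. Of the 496 Slc17a6-dominant spots 65.5% were labeled thalamus, medial habenula or hypothalamus, 9.88% cortex or hippocampal layers and 19.4% unassigned. In untrained 1 the shares of its 40 Slc17a6-dominant spots were 52.5%, 22.5% and 25%. Of the 2763 Slc17a7-dominant spots 51.6% were in the cortex or hippocampal layers, 10.1% in the diencephalon and 32.4% unassigned.

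In each section, the neighbors of a dominant spot were of its own class more often than that class's share of classed spots, a description with no test. Among the classed neighbors of a Slc17a6-dominant spot 48.3%, 56.1%, 18.8% and 47.3% were Slc17a6-dominant too in trained 1, trained 2, untrained 1 and untrained 2, beside 12.1%, 22.6%, 6.73% and 8.57% of all classed spots. For Slc17a7 the neighbors were at 91.2%, 85.2%, 90.4% and 92.2%, beside 76.8%, 65.3%, 79.3% and 82.8% of classed spots. Slc17a7-dominant spots fell into 91 to 121 separate groups per section, and the largest group held 27.0 to 49.6% of them. Slc17a6-dominant spots fell into 34 to 84 groups, the largest of which held 11, 33, 2 and 15 spots in trained 1, trained 2, untrained 1 and untrained 2, or 5 to 17.4% of them. In the thalamus, of 560 classed spots 230 were Slc17a6-dominant, 215 Slc17a7-dominant and 115 tied. CA1 had 180 Slc17a7-dominant spots of 191 and 1 Slc17a6-dominant, layer 5 had 325 and 2 of 344, and layer 6 had 298 and 2 of 307. The hypothalamus, with 73 Slc17a6-dominant and 34 Slc17a7-dominant spots of 151, was the region with the highest mean share of Slc17a6-dominant spots, at 46.0%.

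**Figure D4:**
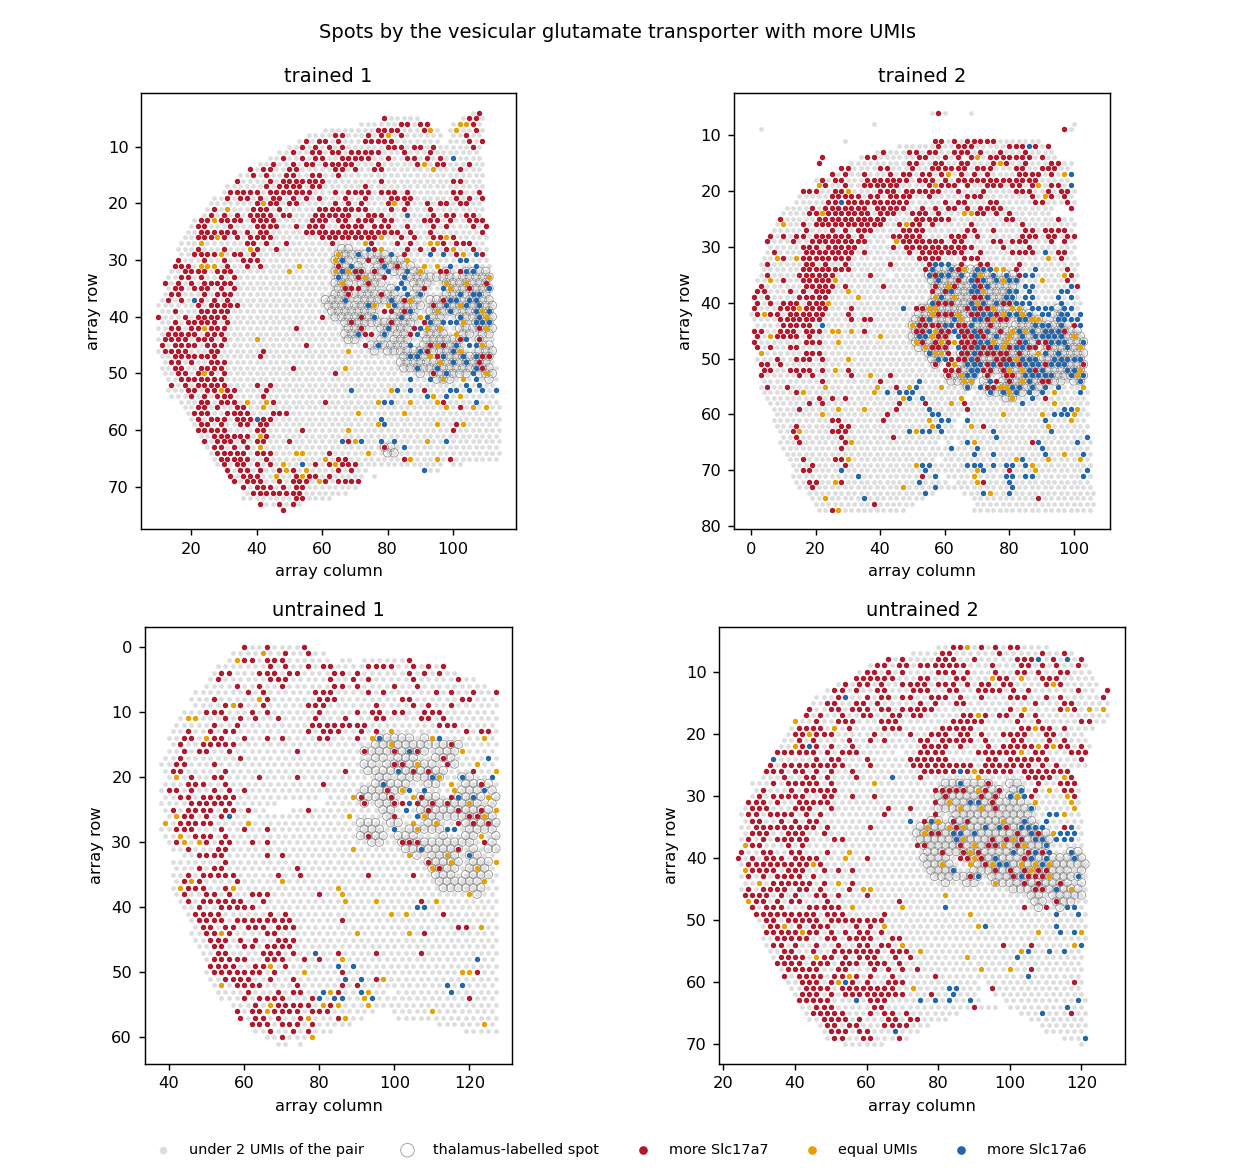
Array maps of the 4 sections, with dorsal at the top and the midline at the right, showing spots with more Slc17a7 UMIs (red), more Slc17a6 UMIs (blue) or equal UMIs (orange) among those with at least 2, spots under 2 UMIs of the pair (gray) and thalamus-labeled spots (circled). Red spots follow the cortex and the hippocampal layers, and blue spots, 114, 256, 40 and 86 in the 4 sections, lie in the circled thalamus and elsewhere in the section, in untrained 1 in groups of at most 2 spots.

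Slc17a8 was too sparse for a map. Its 89 UMIs gave 9.01 ± 1.75 CPM in CA3 from 9 UMIs, 6.20 ± 3.48 in CA1 from 7, 5.78 ± 2.998 in layer 5 from 10 and 5.64 ± 5.80 in the striatum from 8. The other regions had means of 0.801 to 5.67 CPM. Among the named regions only CA3, CA1 and layer 5 had a UMI in each of the 4 sections, and no order of regions was detectable at this depth. In untrained 1 the thalamus held 0 UMIs of Slc17a8, which allows up to 9.75 CPM at 3 counts.

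Across the 56 sums of 14 regions in 4 sections, the genes whose log2 levels went most closely with Slc17a7 among 7666 genes were Cck (Pearson r = 0.86), Olfm1 (0.84), Enc1 (0.80), Camk2a (0.80) and Schip1 (0.79). Cck encodes the peptide cholecystokinin and Camk2a a calcium-dependent kinase of excitatory synapses. Slc17a6 went most closely with Apba1 (0.76), an adaptor of the presynapse, and with Slc6a11 (0.75), a GABA transporter, Zbtb4 (0.72), Syt9 (0.71) and Acot7 (0.70). Between Slc17a7 and Slc17a6 r was -0.16. The 56 sums share 4 libraries and regions lie side by side, so these values are descriptions with no test.

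The other genes of vesicular glutamate loading were read against the same maps. Over all 7664 other genes 51.8% had the higher r with Slc17a7, 48.2% with Slc17a6, and 7.40% were highest in CA3. Of 16 genes of the vesicular proton pump, 12 had the higher r with Slc17a7 and 8 were highest in CA3, such as the subunits Atp6v1g2 (r = 0.70 with Slc17a7, 578 CPM in CA3) and Atp6v1a (r = 0.64, 458 CPM in CA3). Sv2b, a vesicle glycoprotein, had r = 0.77 with Slc17a7 and 384 CPM in CA3. Among 12 genes of glutamate synthesis and glutamine supply, 10 had the higher r with Slc17a6. Glud1, glutamate dehydrogenase, had r = 0.57 with Slc17a6 and was highest in the hypothalamus at 291 CPM, and Got1, an aspartate aminotransferase, had r = 0.49 and was highest in the thalamus at 471 CPM. The vesicular GABA transporter Slc32a1 was highest in the striatum, at 256 CPM, with r = -0.40 against Slc17a7 and -0.26 against Slc17a6. Of the 6 other SLC17 genes only Slc17a5, the lysosomal sialic acid carrier, exceeded 1 CPM, with a mean of 19.5.

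The trained and untrained mice were compared to ask whether the transporters differ 3 days after memory retention was tested. The UMIs of each section were summed and fitted in edgeR with its quasi-likelihood model, and a gene was called at a Benjamini-Hochberg adjusted p under 0.05. None of the 3 transporters was called in the whole section, and neither Slc17a7 nor Slc17a6 in any of 6 groups of spots. In the whole section edgeR called 2 of 13810 genes (0.0145%), with 1099 at an unadjusted p under 0.05, and in the hippocampal layers together 1 (0.0105%). It called 0.0674% of genes in CA1, 0% in CA3, 0% in the dentate gyrus, 0.164% in the cortex and 0.0113% in the thalamus. CA3 and the dentate gyrus had 274 and 183 genes at an unadjusted p under 0.05. On simulated counts the fit recovered 91% of 100 changes of 1 on the log2 scale in the whole section and 77% of 100 in the thalamus. It also called 14 of 13614 unchanged genes in the whole section and 4 of 8666 in the thalamus. The simulation changed only genes with high counts and gave all genes 1 common dispersion. It thus does not cover rare genes or genes that vary more between mice.

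Slc17a7 had lower levels in the trained sections, without passing the test. Over the whole section the trained values of 498 and 393 CPM were both below the untrained 631 and 609, which was so for 11.9% of 13959 genes. The fitted difference was -0.55 ± 0.15 on the log2 scale (trained minus untrained, SE, 2 against 2, edgeR adjusted p = 0.526). Without trained 1, which leaves trained 2 alone in its group, it was -0.80 with an edgeR adjusted p of 6.78e-07, and without a filter on low counts it was -0.54 with an adjusted p of 0.00485. Without trained 2 it was -0.34. The order of the 4 sections was the reverse of their order in depth, and with the sums thinned to the smallest total the difference was -0.57 (edgeR adjusted p = 0.357). The thalamus, which is poor in Slc17a7, also took 11.2% and 16.4% of the UMIs of trained 1 and trained 2 against 8.64% and 9.94% in untrained 1 and untrained 2. With the 14 regions weighted equally the means were 444 CPM trained and 550 untrained, a log2 ratio of -0.31, beside -0.48 for the same ratio of mean CPM over whole sections. The summed level of 4 markers of all neurons (Snap25, Rbfox3, Syt1 and Stmn2) was 4331 CPM in trained 1, 4251 in trained 2, 4366 in untrained 1 and 4181 in untrained 2. Trained 2, the section lowest in Slc17a7, was also the highest in several region marker lists. White matter markers summed to 6935 CPM in it against 4144 in trained 1, 4577 in untrained 1 and 4618 in untrained 2, and hypothalamus markers to 2248 CPM against 321, 1189 and 842. The part of these levels in the difference was not tested. In bulk sums fewer cells of a type and less RNA per cell cannot be told apart.

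By region, Slc17a7 had a lower trained than untrained mean in 13 of 15 groups of spots, unassigned ones included, with layer 6 and the meninges as the exceptions. In the thalamus the trained values of 256 and 345 CPM were below the untrained 429 and 378, as they were for 12.4% of genes there, and the difference was -0.48 ± 0.17 (SE, edgeR adjusted p = 0.688). CA1 had 692 and 519 CPM trained against 856 and 731 untrained, a separation found in 16.2% of genes, and a difference of -0.41 ± 0.20 (adjusted p = 0.865). Without trained 2 the CA1 difference was -0.21 and without trained 1 it was -0.62. The CA1 spots of trained 2 had 3035 CPM of the markers of all neurons, against 4084 in trained 1, 3851 in untrained 1 and 3918 in untrained 2, and 5451 CPM of white matter markers against 3057, 2351 and 2484. White matter markers were also higher in its CA3 spots, at 5566 CPM against 2850 to 3203 in the other sections, and the part of these levels in the Slc17a7 differences was not tested. Trained 2 had the lowest value in 5 of the 6 hippocampal and cortical layers. In the hippocampal layers together, trained 1 at 799 CPM lay between the untrained 783 and 905 while trained 2 had 556, and the difference was -0.35 ± 0.17 (adjusted p = 0.894). Without trained 1 it was -0.62 (adjusted p = 0.0415), without trained 2 it was -0.11, and with spots scored by their own counts -0.22. CA3 differed by -0.10 ± 0.19 (adjusted p = 0.978) and by 0.11 without trained 2, and the cortex, with 814 and 738 against 814 and 886 CPM, by -0.22 ± 0.16 (adjusted p = 0.826), trained 1 and untrained 1 being level. The cortical difference was -0.085 without trained 2, -0.37 without trained 1 and -0.11 with spots scored by their own counts. In the hippocampal layers together, CA3 and the cortex the conditions overlapped, and both trained sections lay below both untrained ones in 15.1%, 15.0% and 11.6% of genes.

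In the dentate gyrus Slc17a7 also had lower trained values, by an amount that depended on 1 section and on the outline of the layer. The granule layer had 560 and 282 CPM in trained 1 and trained 2 and 840 and 662 in untrained 1 and untrained 2, so that the conditions did not overlap, as for 15.3% of genes. The difference was -0.83 ± 0.29 (SE, edgeR adjusted p = 0.9997). It rested on trained 2: without trained 1 it was -1.32 (adjusted p = 5.71e-08) and without trained 2 it was -0.40. Between 35 and 97 spots with hippocampal labels per section lay ventral of the 25th percentile row of the thalamus. Without these spots, trained 2 had 378 CPM and the other sections 590, 874 and 742, and the difference was -0.69 ± 0.24 (edgeR adjusted p = 0.999). With each spot scored by its own counts alone the difference was -0.46 (edgeR adjusted p = 0.988). The 4 neuronal markers summed to 3021 and 2831 CPM in the dentate layer of trained 1 and trained 2, and to 3308 and 3208 in that of untrained 1 and untrained 2. The dentate layer of trained 2 stood apart in other marker lists. Its dentate granule markers summed to 459 CPM, against 855 in trained 1, 797 in untrained 1 and 621 in untrained 2. The white matter markers, genes of myelin, summed there to 3217 CPM against 1637, 2211 and 2853, and the astrocyte markers to 499 CPM against 389, 309 and 336. The part of these levels in the Slc17a7 difference was not tested.

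Slc17a6 had no direction that held. Over the whole section the trained values of 115 and 148 CPM overlapped the untrained 122 and 103, and the difference was 0.15 ± 0.14 (SE, edgeR adjusted p = 0.805). It was 0.017 without trained 2 or without untrained 2, 0.26 without trained 1 and 0.28 without untrained 1. With the regions weighted equally the log2 ratio of mean CPM was -0.18, beside 0.23 over whole sections. The thalamus had 356 and 399 CPM trained and 319 and 365 untrained, which overlapped, with a difference of 0.06 ± 0.16 (adjusted p = 0.978), and -0.02 without untrained 1. The dentate granule layer had 58.3 and 137 CPM against 8.57 and 82.0, of which the 8.57 stands for 1 UMI. The difference of 0.77 ± 0.54 (adjusted p = 0.9997) was 0.06 with only dorsal spots. With 1 section left out it ran from -0.13, without trained 2, to 3.51. The difference was 0.29 in the hippocampal layers, -0.07 in CA1, 0.05 in CA3 and -0.16 in the cortex, each turning sign when 1 section was left out. Slc17a8 reached the test only in the whole section, where its trained values of 3.65 and 3.39 CPM were above the untrained 2.81 and 2.73, as for 29.1% of genes, with a difference of 0.26 ± 0.38 (adjusted p = 0.889), which was 0.16 without trained 1 and 0.74 with thinned sums.

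**Figure D5:**
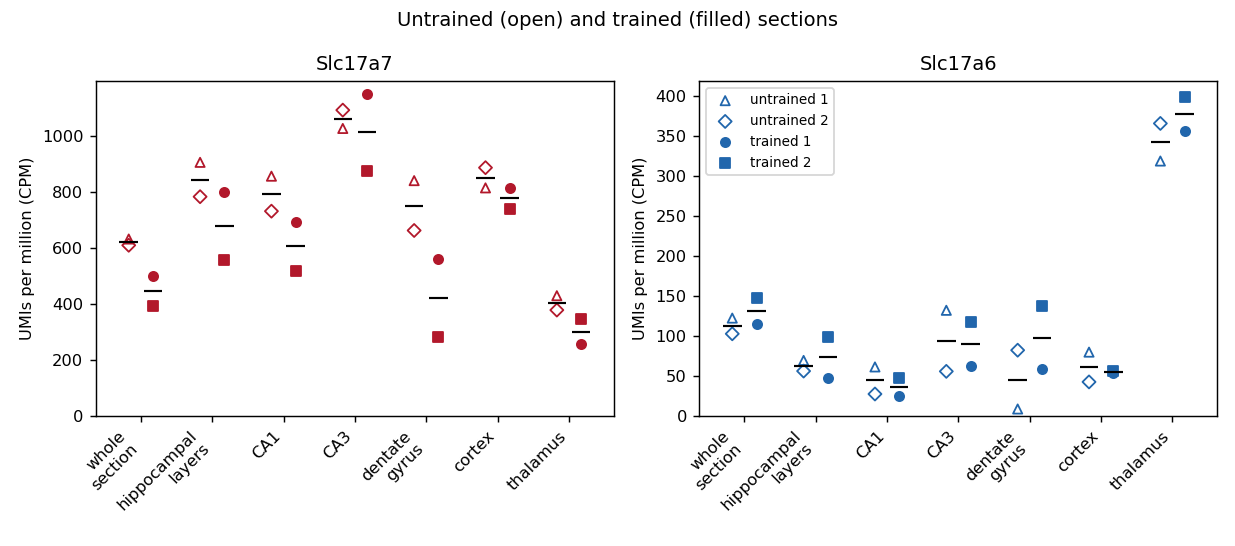
Level of Slc17a7 (left) and Slc17a6 (right) in CPM in untrained (open) and trained (filled) sections, for the whole section and 6 groups of spots, with a horizontal bar at the mean of each pair. Slc17a7 points of trained sections lie below both untrained ones in the whole section, CA1, the dentate gyrus and the thalamus, and the Slc17a6 points overlap in all 7.

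Whether training bore differently on thalamus and cortex was tested as an interaction with the section as a block. For Slc17a7 the thalamic difference minus the cortical one was -0.21 ± 0.15 (SE, edgeR adjusted p = 0.967). With 1 section left out it ran from -0.56 to 0.05, the latter without trained 1. For Slc17a6 the same difference was 0.17 ± 0.22 (adjusted p = 0.997), and it ran from -0.29, without untrained 1, to 0.83. The interaction was called for 0.164% of 10972 genes and for neither transporter.

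Tested over single spots with the Wilcoxon rank-sum test, the unit of the study's methods, Slc17a6 in the thalamus was called higher in trained spots (log2 difference of 0.25, adjusted p = 1.15e-07) and Slc17a7 in the hippocampal layers lower (-0.46, adjusted p = 0.00444). That test takes the spots of 1 mouse as independent. It called 67.4% of genes in the thalamus, so a call there is common, with 5590 of 7924 calls higher in trained spots. In the hippocampal layers it called 19.1%. There 2130 of 2282 calls were higher in trained spots, so a lower call, as for Slc17a7, was uncommon. It called 26.9% in the cortex, 4.32% in CA3, 0.573% in CA1 and 0.286% in the dentate gyrus, none of which included a transporter.

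Within the thalamus Slc17a6 made up 58.2% and 53.7% of the pair's UMIs in trained 1 and trained 2 and 42.6% and 49.2% in untrained 1 and untrained 2. The trained shares were both higher, but the exact 95% binomial intervals, which cover counting error only, ran from 50.9 to 56.4% in trained 2 and from 44.6 to 53.7% in untrained 2 and overlapped. The share of classed spots dominated by Slc17a6 over the section was 12.1% (exact 95% binomial interval 10.1 to 14.4%) in trained 1 and 22.6% (20.2 to 25.2%) in trained 2. It was 6.73% (4.85 to 9.06%) in untrained 1 and 8.57% (6.91 to 10.5%) in untrained 2. These intervals take the spots of a section as independent. Neighbors often shared a class, so the intervals are too narrow for setting the sections against each other. The means were 17.4% trained and 7.65% untrained, a difference of 9.73 percentage points (two-sided exact permutation p = 0.333, the smallest that 2 against 2 can give). Without trained 2 the difference was 4.48 points and without trained 1 it was 15.0. Spots thinned to 500 UMIs each, in 1 random draw, gave means of 12.7% trained and 3.75% untrained. These rest on 12 of 110 and 15 of 104 classed spots in trained 1 and trained 2. In untrained 1 and untrained 2 they rest on 4 of 100 and 4 of 114. With a minimum of 5 UMIs of the pair the conditions overlapped, at 6.43% and 18.8% in trained 1 and trained 2 and 2.33% and 7.07% in untrained 1 and untrained 2 (two-sided exact permutation p = 0.667). The thalamus held 12.1% and 12.9% of spots in trained 1 and trained 2 against 10.2% and 11.0% in untrained 1 and untrained 2. Within the thalamus alone 47.0% and 47.3% of classed spots were Slc17a6-dominant in the trained sections and 18.2% and 31.3% in the untrained, of 115, 275, 55 and 115 classed spots. The part of depth in these thalamic shares was not tested.

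Of the pathway genes, 34 to 44 entered the test in each comparison, and edgeR called 0 in either direction in all 7. In the whole section the median difference was -0.06 over the 16 proton pump genes and 0.05 over the 12 of glutamate synthesis and glutamine supply, beside 0.0087 over all genes tested. The smallest p-values of these genes belonged to glutamine handling. Slc38a3, a glutamine carrier mainly of astrocytes, had 49.1 and 87.9 CPM in the hippocampal layers of trained 1 and trained 2 against 13.9 and 25.7 in those of untrained 1 and untrained 2, a difference of 1.68 ± 0.35 (SE, edgeR adjusted p = 0.205). The 13.9 CPM rests on few UMIs, since 3 counts stand for 6.93 CPM there. Among the 14 regions Slc38a3 was highest in choroid plexus, at a mean of 197 CPM. Glul, the glutamine synthetase of astrocytes, had 482 and 408 CPM in the thalamus of the trained sections against 754 and 648 in that of the untrained, a difference of -0.72 ± 0.17 (adjusted p = 0.179). Sv2b and Atp6v1g2, whose maps were like that of Slc17a7, differed by -0.37 ± 0.11 and -0.30 ± 0.13 in the whole section (adjusted p = 0.562 and 0.606).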

How the data were processed

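Spatial gene expression was measured with 10x Visium in 1 section from each of 2 trained and 2 untrained mice. The authors deposited raw UMI counts for each gene in each spot over tissue, with no scaling. Reads were demultiplexed with bcl2fastq2, trimmed with TrimGalore and, by the methods, counted with Space Ranger on mm10. The files' own header gives Space Ranger 1.2.2, and the submitters' processing notes list Cell Ranger 8, STAR and mm39, so the counting software is not settled. Gene coordinates are those of GENCODE vM21, promoters those of RefSeq. No other per-sample columns were present, and section images and single nuclei were not analysed here.

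A spot was assigned to the region whose markers, as the mean standardized level over the spot and its 6 array neighbors, reached 1 SD and led by 0.25 SD, with at least 2 neighbors of the same label. This average over neighbors replaced scoring by a spot's own counts, which became an alternative, after maps of the labels were seen, and so did the filter on neighbors. The transporters, markers and pathway lists were chosen with earlier results of these data known. The analysis of inner thalamic spots, the 4 forebrain genes and the 5 genes like Slc17a7 beside it, the steps from the thalamus, the dorsal hippocampal spots and the equal weights of regions were chosen after values of the transporters were seen.

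UMIs were summed per section and region and tested in R 4.3.3 with edgeR 4.0.16, after filterByExpr and TMM, by glmQLFit and glmQLFTest, Benjamini-Hochberg adjusted over all genes tested, with 2 residual degrees of freedom. An SE is the size of the log2 difference over the square root of F. In the interaction the prior degrees of freedom were infinite, so that the spread was 1 trend for all genes. Nothing but the section separates the replicates, which are 1 mouse each. The replicate numbers did not pair sections: deviations of same-numbered sections correlated at 0.0222 over 7773 genes. The fits were tested on simulated counts with the totals of the sections. Depth was 3560294 to 10330015 UMIs per section, and a count of 0 was given a limit of 3 counts.

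Likeness was Pearson's r of log2(CPM + 1), a scale that lowers the contrast of rare genes, over genes with a mean of at least 20 CPM. Named genes were the 3 transporters, the 5 genes most like Slc17a7 and Slc17a6, and from the 2 genes of smallest p of each pathway list those shown. The 4 markers of all neurons, and the forebrain genes and pathway genes shown for their maps, were named outside this rule, the latter 2 kinds after their values were seen. Some genes that entered the list counts are not reported here by name. The alternatives were DESeq2 1.42.0, no filter, genes left out of the totals (mitochondrial, Bc1, Ttr, Gm42418), sums thinned to the smallest total, a stricter lead of 1 SD, the replicate block, the rank-sum test over spots, other minimum UMIs for dominance and each section left out. Python 3.11.15, numpy 2.4.6, pandas 2.3.3 and scipy 1.17.1 were used.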

Additional observations from a re-analysis of the deposited data

How the results depend on the processing

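Slc17a7 was lower in the trained sections in 85 of 86 alternatives over the 7 comparisons, and 5 of these called it, fits with 1 trained section among them. The alternatives refit the same 4 sections in overlapping groups of spots, so their shared direction is not independent support. Slc17a6 was lower in 30 and higher in 47 of 77, with 1 call. Slc17a7 was called in the whole section without a filter (-0.54) and in the hippocampal layers by the rank-sum test over spots (-0.46), and Slc17a6 in the thalamus by the rank-sum test (0.25). Leaving out 1 section, which leaves its group with 1 section assumed to vary like the other group, Slc17a7 ran from -0.80 to -0.34 in the whole section, -0.62 to -0.11 in the hippocampal layers, -0.62 to -0.21 in CA1, -0.37 to -0.085 in the cortex, -0.64 to -0.33 in the thalamus, -0.29 to 0.11 in CA3, -1.32 to -0.40 in the dentate gyrus and -0.56 to 0.049 in the interaction. With each spot's own counts Slc17a7 was -0.46 in the dentate gyrus. Slc17a6 ran from 0.017 to 0.28 in the whole section, -0.38 to 0.67 in the hippocampal layers, -0.71 to 0.49 in CA1, -0.55 to 0.72 in CA3, -0.13 to 3.51 in the dentate gyrus, -0.64 to 0.26 in the cortex, -0.018 to 0.20 in the thalamus and -0.29 to 0.83 in the interaction. Slc17a6 also turned sign with equal weights of regions (-0.18), in the hippocampal layers with thinned sums (-0.028), a stricter lead (-0.11) and the rank-sum test (-0.0031), in CA3 with DESeq2 (-0.041) and the rank-sum test (-0.30), and in the thalamus with each spot's own counts (-0.0083). Slc17a8 ran from 0.16 to 0.37 with 1 section left out, was 0.74 with thinned sums and turned to -0.077 with equal weights. The mean of Slc17a7 in CA3 was 1268 CPM with own counts and 1223 with a stricter lead. The causes of these moves were not tested.

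The replicate numbers do not pair the sections. The replicate block gave -0.57 for Slc17a7 in the whole section (edgeR adjusted p = 0.0686) and -0.91 in the dentate gyrus (0.0690) and called neither; it called 47 genes in the whole section in place of 2. With the rank-sum test over spots left aside, counts of called genes moved by over 1.5 times in 67 alternatives and by less in 19. In alternatives with all 4 sections they ran from 2 to 211 in the whole section, 0 to 28 in the hippocampal layers and 0 to 27 in CA1. They ran from 0 to 8 in CA3, 0 to 7 in the dentate gyrus, 0 to 88 in the cortex, 0 to 32 in the thalamus and 0 to 15 in the interaction. Apart from the rank-sum test, the count was highest without trained 1 in each of the 7 comparisons. The rank-sum test called from 35 genes in the dentate gyrus to 7924 in the thalamus. The share of Slc17a6-dominant spots stayed higher in the trained mean in all 7 alternatives, by 4.48 to 15.0 percentage points, but with a minimum of 5 UMIs the sections of the 2 conditions overlapped. Depth limits Slc17a8, with 10 to 35 UMIs per section, to the whole section.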
